A study of Capra hircus with 3 samples.

Results

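The genes of RNA splicing and translation factors are described here in goat skin under a short photoperiod, where they were measured by 38 of the 15008 probes of a sheep array, standing for 34 of its 14363 identifiers. They were found by their description on the array, as every non-control row that names a splicing factor, a heterogeneous or small nuclear ribonucleoprotein, a translation initiation factor, elongation factor 1 or 2, or a tRNA synthetase. The rule itself used no measured value. There were 17 probes in the splicing group, 9 in the initiation group, 4 in the elongation group and 8 in the tRNA synthetase group, and 0 belonged to more than 1 group. Of the 38 probes, 26 had tentative consensus records (TC) named after the closest known protein and 12 had records of sheep sequences. Probes of 1 record share their target, so they are not separate evidence for a gene. Counts and group medians were nonetheless taken over probes, so that each probe of a record counts, and averaging them was an alternative.

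RNA was taken from the body skin of 6 female Arbas Cashmere goats, adults 2 years old. The 3 goats of the short photoperiod group grazed outdoors for part of the day and spent the rest in a dark shed that was slightly colder than outside, and the 3 goats of the control group grazed in natural daylight. The samples' titles call this control a long photoperiod, and their descriptions a natural one. The groups therefore differed in housing as well as in daylight. Each of 3 arrays compared 1 goat of each group, chosen as fellows of the same parent, with the short photoperiod RNA in Cy5 and the natural photoperiod RNA in Cy3, and is called replicate 1, 2 or 3. The dyes were swapped on 0 arrays, so a dye bias of a probe and a change with photoperiod cannot be told apart. Values are log2 ratios of short over natural photoperiod after loess normalization within each array, given as mean ± SD over n = 3 arrays, and a ratio above 0 means a higher level in the short photoperiod skin.

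Splicing removes introns from new transcripts. The small nuclear ribonucleoproteins U1 and U2 recognise the intron's start and branch site, SR proteins bind exons and favour their use, and hnRNP proteins coat the transcript and often oppose it. In translation, initiation factors bring the small ribosomal subunit, the initiator tRNA and the mRNA together, elongation factors deliver charged tRNAs to the moving ribosome, and aminoacyl-tRNA synthetases charge each tRNA with its amino acid. These are housekeeping functions, and in skin the growing hair follicle is among the sites of heavy protein synthesis.

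Each probe was 60 bases long. Of the members, 4 records carried a pair of probes, so the same target was measured at a pair of places on each array. The SRSF3 pair shared 41 bases, the eIF4A pair 40, the EEF1E1 pair 59 and the asparaginyl-tRNA synthetase pair 17. The pairs of SRSF3, eIF4A and EEF1E1 are printed to show how far each was the same sequence, with the bases shared by both probes in capitals. The probes of EF-1 delta, eIF5B and SNRPA follow because later comparisons turn on them, and they have no capitals.
SRSF3 first probe: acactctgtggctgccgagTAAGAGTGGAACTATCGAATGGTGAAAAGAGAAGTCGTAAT
SRSF3 second probe: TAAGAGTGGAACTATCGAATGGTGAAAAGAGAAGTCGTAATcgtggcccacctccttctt
eIF4A first probe: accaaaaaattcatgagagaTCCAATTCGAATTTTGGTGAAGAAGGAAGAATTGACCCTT
eIF4A second probe: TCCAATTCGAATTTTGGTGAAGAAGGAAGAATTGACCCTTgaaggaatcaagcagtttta
EEF1E1 first probe: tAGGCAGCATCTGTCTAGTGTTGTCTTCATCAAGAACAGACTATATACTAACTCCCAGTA
EEF1E1 second probe: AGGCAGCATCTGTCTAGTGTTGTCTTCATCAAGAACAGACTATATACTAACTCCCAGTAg
EF-1 delta probe: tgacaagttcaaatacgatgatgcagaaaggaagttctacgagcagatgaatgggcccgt
eIF5B probe: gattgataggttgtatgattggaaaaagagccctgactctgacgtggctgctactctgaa
SNRPA probe: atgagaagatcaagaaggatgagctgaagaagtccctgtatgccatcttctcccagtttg

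No member was called with limma, whose lowest adjusted p over the 38 was 0.182, and none changed 2-fold in its mean. On all 14977 tested probes, 1 (0.00668%) had an adjusted p under 0.05, and 0.427% were at least 2-fold higher and 0.414% at least 2-fold lower. At an unadjusted p under 0.05, 3 members were higher (SNRPA, eIF5B and eIF5A-1) and 1 was lower (splicing factor 38B), beside 9.1% of all probes higher and 9.37% lower. On every array 8 members (21.1%) were higher and 5 (13.2%) lower, beside 21.6% and 22.0% of the 14868 probes measured on all arrays. The 4 with a low p are 10.5% of the members, below the 18.5% of all tested probes with such a p in either direction. The means of the 38 members lay between -0.39 and 0.40, fold changes of 0.761 and 1.32, and all 38 were within 0.5 of 0, as were 91.2% of all tested probes. The mean was above 0 for 26 of the 38 members and 48.9% of all tested probes, and the median of the members' means was 0.058. When arrays were only centred on their medians, without loess, 33 of the 38 means were above 0 and 9 members were called, all of them higher. In that processing 7560 of the 14977 tested probes had a mean above 0 and 1880 were called, 1014 of them higher. In whole skin, fewer cells of a type and less RNA per cell cannot be told apart.

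**Figure D1:**
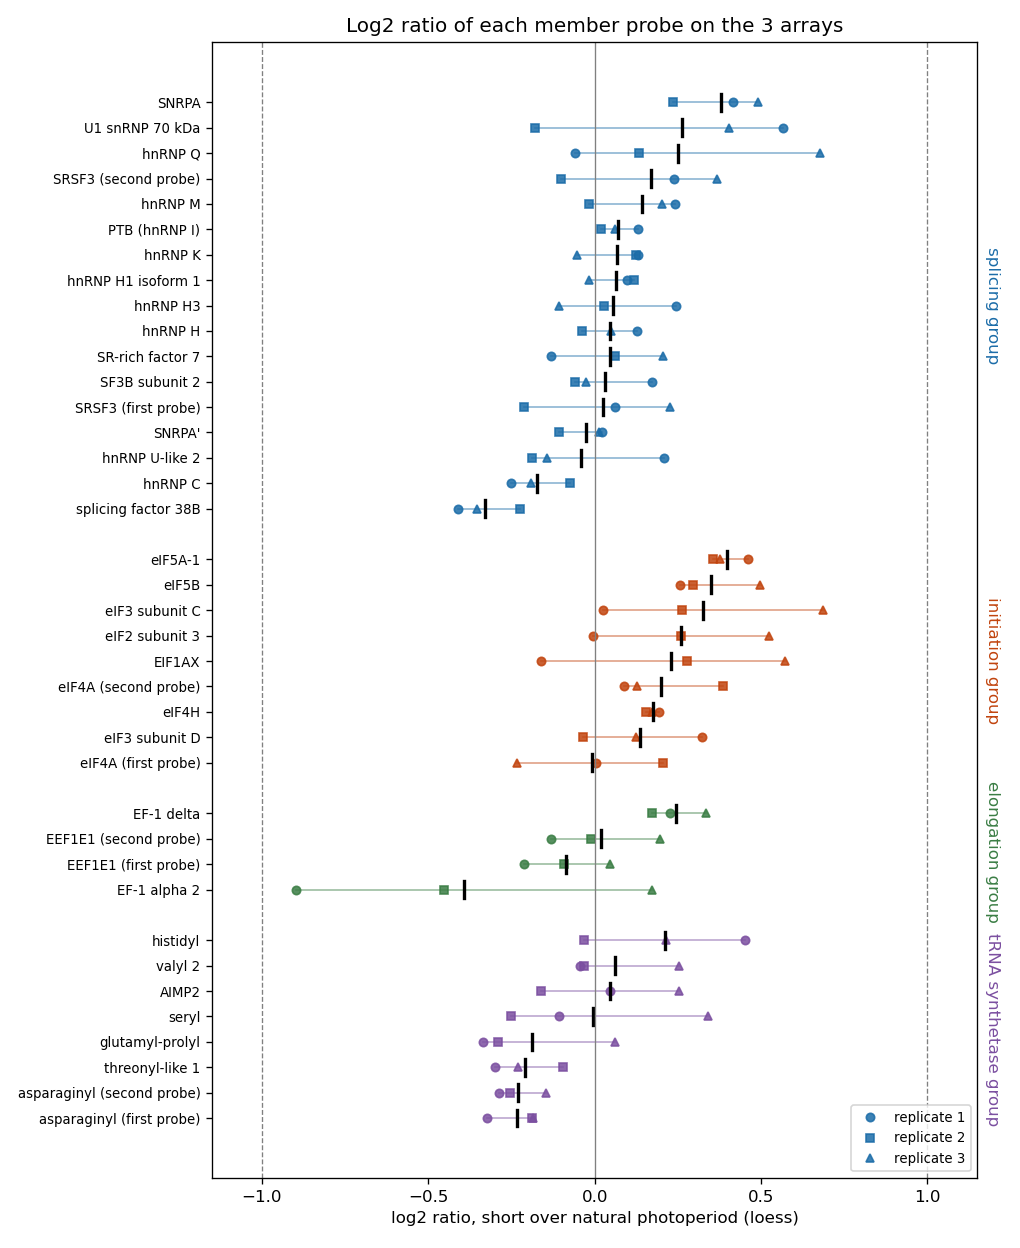
Log2 ratio of short over natural photoperiod (horizontal axis, loess) for each of the 38 probes, with a point for each array and a black bar at the mean, where dashed lines mark a 2-fold change. Every point lies inside these lines, most initiation probes lie above 0, and the asparaginyl and threonyl-like synthetase probes lie below 0 on every array, though both asparaginyl means were above 0 under median centring.

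The splicing group had median log2 ratios close to 0, and its members' means lay on both sides of 0. The medians over its 17 probes were 0.131, -0.039 and 0.050 on replicates 1, 2 and 3, with a mean of 0.047 ± 0.085. Of the 17, 2 were higher and 2 lower on every array, beside 21.6% and 22.0% of all probes measured on every array. The mean was above 0 for 13, beside 48.9% of all tested probes.

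SNRPA, a protein of the U1 small nuclear ribonucleoprotein, had the highest mean of the splicing probes. Channel intensities of single probes are given without background correction or normalization. Those of SNRPA were 9465, 14365 and 13095 for the short and 4041, 6563 and 4815 for the natural photoperiod on replicates 1, 2 and 3. The loess ratios were 0.42, 0.24 and 0.49, with a mean of 0.38 ± 0.13 (n = 3), a fold change of 1.30 and an adjusted p of 0.2 from limma. All 3 arrays lay above 0, with an unadjusted p of 0.0155. The larger U1-specific protein of the same particle (TC67019) had a lower mean and a wider spread, with 0.57, -0.18 and 0.40, a mean of 0.26 ± 0.39 and an adjusted p of 0.453. Its replicate 2 lay on the other side of 0. The record of SNRPA′, a protein of the U2 particle, had a mean of -0.025 ± 0.072.

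Splicing factor 38B (TC55619), related to a protein of the spliceosome's tri-snRNP, had the lowest mean of the splicing group. Its intensity was 13920, 12338 and 15090 in the short photoperiod channel and 9822, 7758 and 9452 in the natural photoperiod channel. Once loess had removed the general excess of Cy5, the ratios were -0.41, -0.23 and -0.35, with a mean of -0.33 ± 0.095, a fold change of 0.796 and an adjusted p of 0.215 from limma. It was below 0 on every array, with an unadjusted p of 0.0216, and had a mean of -0.22 under median centring. SF3B subunit 2 (TC60958), part of the complex that holds the branch site, had a mean of 0.030 ± 0.125.

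SRSF3, a small SR protein that promotes the use of exons, was measured by the printed pair. The first probe had 0.06, -0.21 and 0.23, with a mean of 0.025 ± 0.22, and the second 0.24, -0.10 and 0.37, with a mean of 0.17 ± 0.24. Replicate 2 was below 0 and replicates 1 and 3 above 0 with both probes, so the pair gave the same order of arrays. The second probe was higher than the first by 0.18, 0.11 and 0.14, which is less than the spread between arrays. Their adjusted p-values were 0.923 and 0.52 with loess and 0.0375 and 0.0352 under median centring. SR-rich factor 7 (TC58240), another SR protein, had a mean of 0.045 ± 0.168.

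The splicing group held 9 hnRNP probes, and the means of 7 of them were above 0, beside 48.9% of all tested probes. hnRNP C (TC53149), which binds uridine-rich stretches of new transcripts, was below 0 on every array, with -0.25, -0.07 and -0.19 and a mean of -0.17 ± 0.091, but its mean was 0.39 under median centring. Its adjusted p was 0.406. Polypyrimidine tract-binding protein (TC77833, hnRNP I), a repressor of exons, was above 0 on every array, with 0.13, 0.02 and 0.06, a mean of 0.070 ± 0.057 and an adjusted p of 0.718. hnRNP Q (TC71416) had the widest range of the hnRNP probes, with -0.06, 0.13 and 0.68, so that its mean of 0.25 ± 0.38 rested on replicate 3. The means of hnRNP H, H1, H3, K and M lay between 0.046 and 0.14, and that of hnRNP U-like 2 was -0.041, all with adjusted p-values of 0.514 or more.

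The initiation group had the highest median of the 4 groups on replicates 2 and 3 and the second highest on replicate 1. Its medians over 9 probes were 0.089, 0.263 and 0.376, with a mean of 0.243 ± 0.145, and were above 0 on every array with loess and with median centring. Higher on every array were 5 of the 9 (55.6%) and lower on every array 0, beside 21.6% and 22.0% of all probes. The mean was above 0 for 8 of the 9, beside 48.9% of all tested probes. None was called by limma, with adjusted p-values of 0.182 to 0.978. An unadjusted p under 0.05 was found for 2 (22.2%), near the 18.5% of all tested probes.

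eIF5A-1 (TC56902), which helps the ribosome past stretches of proline, had the highest mean of all 38 members. Its intensity was 76160, 80335 and 75423 in the short photoperiod channel and 21520, 22601 and 20089 in the natural photoperiod channel. Before normalization its log2 ratio was 1.82, 1.83 and 1.91, and after loess it was 0.46, 0.36 and 0.38, with a mean of 0.40 ± 0.055, a fold change of 1.32 and an adjusted p of 0.182. The spread between arrays was small beside the mean, the unadjusted p was 0.00908, and the 95% interval of the mean was 0.15 to 0.64. Median centring gave a mean of 1.02 and an adjusted p of 0.0303, and this probe was the only member that changed at least 2-fold in that processing.

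eIF5B (TC75033), the GTPase that joins the large ribosomal subunit to the small, had an intensity of 10975, 15231 and 11716 in the short photoperiod channel and 5157, 6649 and 4334 in the natural photoperiod channel. The ratios were 0.26, 0.29 and 0.50, with a mean of 0.35 ± 0.13, a fold change of 1.27 and an adjusted p of 0.214. All 3 arrays lay above 0, with an unadjusted p of 0.0211. Its mean was 0.40 under median centring, a smaller move than that of eIF5A-1.

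The subunits of eIF3, the scaffold on the small ribosomal subunit, differed from each other in their order of arrays. Subunit C (TC60995) had 0.02, 0.26 and 0.69, with a mean of 0.32 ± 0.34 and an adjusted p of 0.337. Subunit D (TC60737) had 0.32, -0.04 and 0.12, with a mean of 0.14 ± 0.18 and an adjusted p of 0.558. Subunit C was highest on replicate 3 and subunit D on replicate 1.

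The factors that carry or place the initiator tRNA were, like subunit C, lowest on replicate 1 and highest on replicate 3. eIF2 subunit 3 (TC60671), which binds GTP and the initiator tRNA, had a mean of 0.26 ± 0.26 and reached 0.52 on replicate 3. EIF1AX, which takes part in scanning for the start codon, had -0.16, 0.28 and 0.57, with a mean of 0.23 ± 0.37. Both lay below 0 on replicate 1, eIF2 subunit 3 by little.

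eIF4A, the helicase that opens the 5′ end of mRNAs, was measured by the printed pair, whose ratios differed. The first probe had 0.0048, 0.20 and -0.23, with a mean of -0.0074 ± 0.22, and the second 0.09, 0.38 and 0.13, with a mean of 0.20 ± 0.16 and an adjusted p of 0.389. The probes differed by 0.36 on replicate 3, the largest difference of any pair on any array, and their means differed by 0.21. Under median centring the mean of the first probe was 0.41. eIF4H (TC72524), which stimulates eIF4A, had the smallest spread of the group, with 0.19, 0.15 and 0.17, a mean of 0.17 ± 0.02 and an adjusted p of 0.382.

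The elongation group was small, and its 4 probes spread over both sides of 0. The medians were -0.172, -0.052 and 0.184, with a mean of -0.013 ± 0.181, and 0.416 under median centring, so that no direction was common to the processings. On replicates 1 and 2 the middle values that set the loess median were both probes of EEF1E1, which share a record.

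EF-1 alpha 2 (TC76332), the form of the tRNA-delivering factor known from muscle and neurons, had the lowest mean of all 38 members and a wide spread. Its intensity was 2307, 1527 and 6626 in the short photoperiod channel and 2570, 1277 and 3192 in the natural photoperiod channel. The ratios were -0.90, -0.45 and 0.17, with a mean of -0.39 ± 0.54 and an adjusted p of 0.39. Replicate 3 lay on the other side of 0 from replicates 1 and 2, and the 95% interval of the mean was -0.96 to 0.17. A list of skeletal muscle markers had 5 probes, for slow myosin heavy chain, troponin C type 2 and myoglobin, of which 4 were well above background on every array. Their medians were -0.079, -0.288 and -0.0067, and the log2 of their summed intensity was 11 to 11.2 in the short and 11 to 11.3 in the natural photoperiod skin. The part of muscle in the ratio of EF-1 alpha 2 was not tested.

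EF-1 delta (NM_001009449), the exchange factor that reloads EF-1 alpha with GTP, was above 0 on every array, with 0.23, 0.17 and 0.33. Its mean was 0.24 ± 0.082, a fold change of 1.18, with an unadjusted p of 0.0559 and an adjusted p of 0.282. This probe was printed on 5 spots of each array, of which 5, 4 and 5 were used. The spots ranged from 0.12 to 0.30 on replicate 1, from 0.086 to 0.21 on replicate 2 and from 0.17 to 0.56 on replicate 3. All 14 spots thus lay above 0, and within replicate 3 their SD was 0.155, larger than the SD of 0.082 between the arrays. The mean was 0.93 under median centring, with an adjusted p of 0.0339.

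EEF1E1 is named after elongation factor 1 but is a scaffold protein of the complex of tRNA synthetases. Its printed probes, which are 1 base apart, had -0.21, -0.09 and 0.05 and -0.13, -0.01 and 0.20. Both were lowest on replicate 1 and highest on replicate 3. Their means of -0.087 ± 0.13 and 0.018 ± 0.17 fell on different sides of 0 although the sequences share 59 of 60 bases, and differed by 0.10. Under median centring the means were 0.39 and 0.44.

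**Figure D2:**
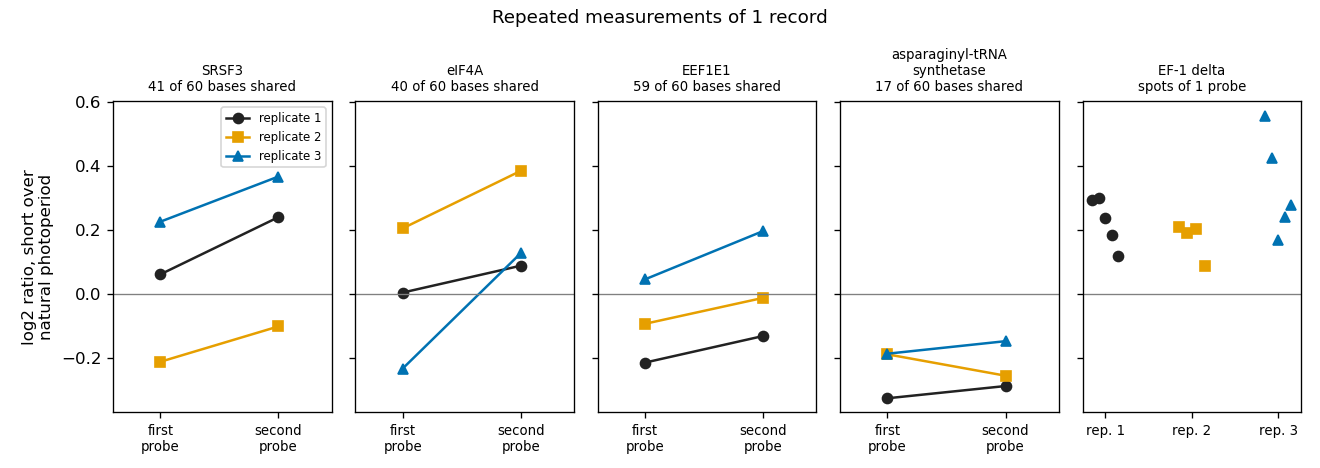
Log2 ratio of short over natural photoperiod (vertical axis, loess) for both probes of the 4 records with a pair, joined within each array, and for the single spots of EF-1 delta. Lines of SRSF3 and EEF1E1 run nearly parallel, the eIF4A probes differ most on replicate 3, and all EF-1 delta spots lie above 0.

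The tRNA synthetase group had the lowest median of the 4 groups on replicates 1 and 2, and splicing had it on replicate 3. Its medians over 8 probes were -0.197, -0.174 and 0.137, with a mean of -0.078 ± 0.186, but the mean was 0.132 under median centring and -0.018 ± 0.202 when the asparaginyl probes were averaged to 1 value. Lower on every array were 3 of the 8 (37.5%), which are 2 records, and higher on every array 0, beside 22.0% and 21.6% of all probes. The smallest adjusted p was 0.297, and 0 members of the group had an unadjusted p under 0.05, beside 18.5% of all tested probes.

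The cytoplasmic asparaginyl-tRNA synthetase record (TC60791) was measured by a pair of probes whose ends overlap by 17 bases. The first probe had -0.32, -0.19 and -0.19 and the second -0.29, -0.25 and -0.15, with means of -0.23 ± 0.080 and -0.23 ± 0.073. The means differed by 0.0035, less than those of any other pair, and all 6 values were below 0. The adjusted p-values were 0.297 and 0.299, and the means were 0.018 and 0.095 under median centring. The record of threonyl-tRNA synthetase-like 1 (TC65517) was the other one below 0 on every array, with -0.30, -0.10 and -0.23, a mean of -0.21 ± 0.10 and an adjusted p of 0.343. Its mean was -0.02 under median centring.

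The other synthetases did not keep 1 side of 0. The glutamyl-prolyl enzyme (TC80013), which charges tRNAs with either amino acid, had -0.34, -0.29 and 0.06, with a mean of -0.19 ± 0.22 and an adjusted p of 0.454, and its mean was 0.38 under median centring. The seryl enzyme (SARS) had -0.11, -0.25 and 0.34, with a mean of -0.0050 ± 0.31. Replicate 3 stood above the other arrays for both. The histidyl enzyme (TC55569) had 0.45, -0.03 and 0.21, with a mean of 0.21 ± 0.24, the highest of the group. The means of valyl-tRNA synthetase 2 and of AIMP2, which like EEF1E1 is a scaffold of the synthetase complex and no enzyme, were 0.060 ± 0.169 and 0.046 ± 0.207.

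The groups were then compared array by array. The initiation median exceeded the tRNA synthetase median by 0.285, 0.437 and 0.240 on replicates 1, 2 and 3, a mean difference of 0.321 ± 0.103. The difference was larger than its spread and above 0 on every array, and it was 0.261, 0.553 and 0.409 under median centring. With eIF4A-II and eIF4A-III added to the initiation group it was 0.221, 0.434 and 0.037, a mean of 0.231 ± 0.199. In comparisons with elongation, the loess median of that group on replicates 1 and 2 rested on both probes of EEF1E1, a synthetase scaffold. Initiation exceeded elongation by 0.261, 0.315 and 0.193, a mean of 0.256 ± 0.061, which was 0.123 ± 0.092 under median centring. This order turned when the elongation factor-1 alpha records, which the wording of the rule leaves out, were added to the elongation group, to -0.147, 0.025 and -0.0040, a mean of -0.042 ± 0.092, and with median centring as well to -0.474 ± 0.087. Elongation exceeded tRNA synthetases by 0.025, 0.122 and 0.047, a mean of 0.065 ± 0.051, which was 0.284 ± 0.069 under median centring but 0.00056 ± 0.095, above 0 on 1 array, when the probes of a record were averaged first.

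The splicing group did not keep its place. Its median minus that of initiation was 0.043, -0.302 and -0.327, so that it lay above on replicate 1 and below on the others. Against elongation its mean difference was 0.061 ± 0.223, and -0.097 ± 0.170 under median centring, both smaller than their spread. Against tRNA synthetases it was 0.125 ± 0.208, smaller than its spread, while under median centring it was 0.304, 0.118 and 0.139, a mean of 0.187 ± 0.102, above 0 on every array. No p is given for these 6 pairs of groups, because 3 arrays cannot give a two-sided exact sign test a p under 0.25 and the groups are medians over few probes.

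**Figure D3:**
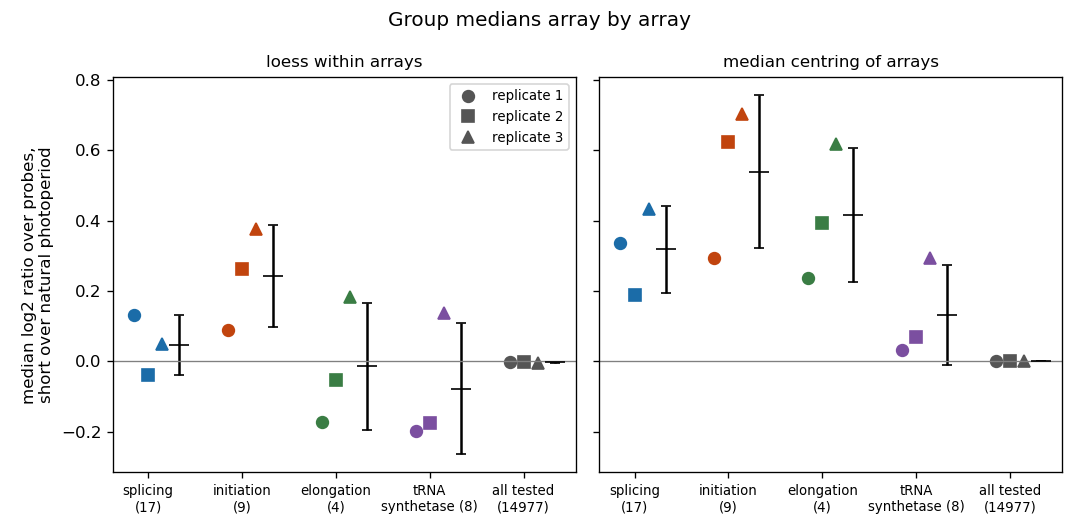
Median log2 ratio of short over natural photoperiod over the probes of each group (vertical axis) on each array, after loess (left) and after median centring (right), with the mean and SD over the 3 arrays beside the points and the number of probes in brackets. Initiation lies above tRNA synthetases on every array in both panels, while the elongation and tRNA synthetase means are below 0 only on the left.

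The members agreed between arrays somewhat more than all probes did. Across the 38 probes Pearson's r was 0.483 between replicates 1 and 2, 0.321 between 1 and 3 and 0.441 between 2 and 3, against 0.312, 0.177 and 0.359 across 14868 probes measured on every array. The points share an array's labelling and its loess curve, and probes are no replicates of each other. The SD of the ratios over the members was 0.285, 0.199 and 0.263, smaller than the 0.403, 0.373 and 0.488 over all probes. The members were brighter than all probes, with a median log2 intensity of 14.2 against 12.2. Probes of equal brightness were not compared, and both probes of each pair were counted.

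Most members were bright, and bright probes had a higher ratio of Cy5 to Cy3 before normalization. On every array, all 38 exceeded the background clearly in either channel. Their median log2 intensity was 14.2, against 12.2 over all probes, and 34 of the 38 lay above that median. Before normalization the median log2 ratio was 1.03, 1.12 and 1.40 over the members and 0.822, 0.844 and 0.905 over all probes. Loess removes a trend of the ratio with intensity, and median centring leaves it in. Between these processings 11 of the 38 means changed sign, 9 from below to above 0 and 2 from above to below. On all tested probes median centring called 1880, of which 1014 were higher.

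**Figure D4:**
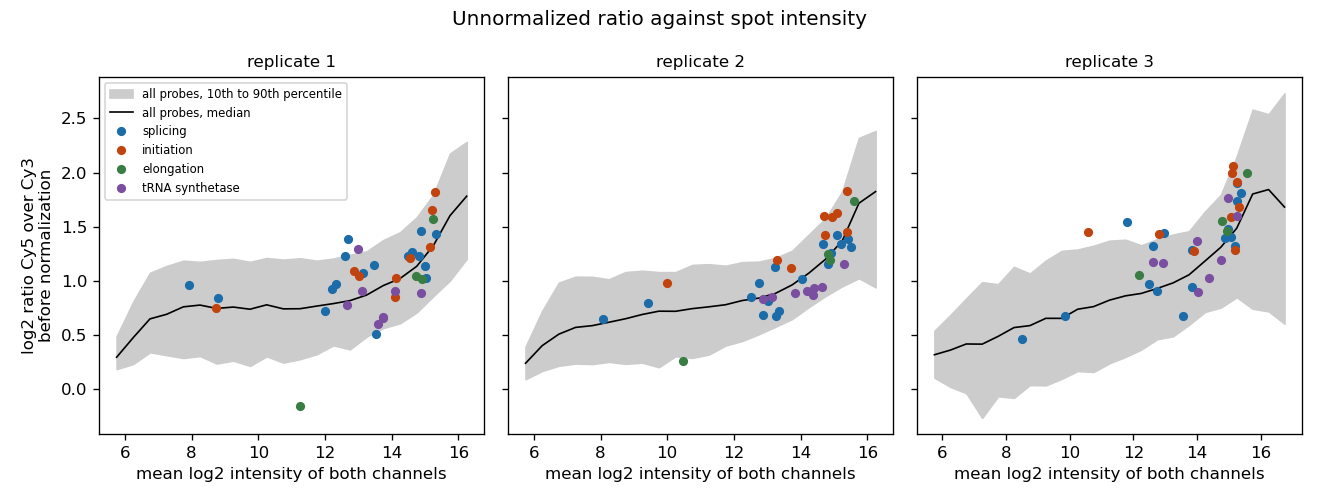
Log2 ratio of Cy5 (short) over Cy3 (natural photoperiod) before normalization (vertical axis) against the mean log2 intensity of both channels (horizontal axis) on each array, with coloured points for the 38 probes, a line for the median of all probes and a grey band from the 10th to the 90th percentile. The median line rises towards bright probes on every array, and most members sit on its rising end.

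Other genes of these pathways, taken by their description, were few on the array. The splicing list held 6 probes, 3 with a mean above and 3 below 0, and its medians were 0.049, 0.148 and 0.073. Its helicase BAT1 (TC58779), which also takes part in mRNA export, had 0.50, 0.27 and 0.38, a mean of 0.38 and an adjusted p of 0.196. All 3 arrays were above 0, with an unadjusted p of 0.0139. The translation list held 3 probes, of which ribosomal protein S6 kinase beta-1 (TC74137), a kinase that acts on the ribosome and on initiation, had 0.44, 0.38 and 0.57, a mean of 0.47 and an adjusted p of 0.163. Release factor subunit 1 (TC68376), which ends translation at stop codons, had a mean of 0.34 and its mitochondrial counterpart (TC81456) one of -0.19. With limma 0 of these 9 probes were called. An unadjusted p under 0.05 was found for 2 of the 9, BAT1 and the S6 kinase, beside 18.5% of all tested probes.

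With loess, the keratin, leukocyte, collagen and skeletal muscle marker lists had medians on 1 side of 0 on every array. The adipose and haemoglobin lists did not. Of all tested probes 48.9% had a mean above 0. Of 25 keratin probes with a value on every array 20 had a mean above 0, with medians of 0.41, 0.416 and 1.091, and 23 of the 25 were well above background throughout, and the log2 of their summed intensity was 20.1 to 20.4 in the short and 19.3 to 20.1 in the natural photoperiod skin. Of 15 leukocyte probes 14 had a mean below 0, with medians of -0.42, -0.221 and -0.646 and sums of 17.2 to 17.4 against 17.7 to 18.1. Of 16 collagen and fibroblast probes 12 had a mean below 0, with medians of -0.449, -0.182 and -0.017, the last close to 0. Their sums were 17.6 to 18.1 in the short and 17.9 to 18.1 in the natural photoperiod skin. Under median centring the collagen median was above 0 on replicate 3, at 0.151. Of 8 adipose probes 5 had a mean below 0, and all 8 did under median centring, with medians of 0.056, -0.083 and -0.702 and sums of 12.2 to 12.9 against 12.8 to 13.7. Haemoglobin, a sign of blood, had medians of 0.291, -2.03 and 1.05 over 2 probes. The part of the cell makeup in the ratios of the splicing and translation factors was not tested.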

How the data were processed

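Each of 3 Agilent sheep arrays compared skin RNA of 2 goats in 2 dyes. The deposited files hold, from the authors' Feature Extraction 10.7.3.1, each spot's mean intensity and local background intensity, not normalized, its processed intensity (background subtracted, lowess dye normalization) and the log10 ratio of the processed intensities. The deposited value table holds the authors' log2 ratio of Cy5 over Cy3. Ratios used here came from the spot intensities in R 4.3.3 with limma 3.58.1, by normexp (offset 50) on all spots, removal of control and outlier-flagged spots (38, 65 and 91), loess within arrays and averaging of the spots of a probe. Median intensities were 4587, 6436 and 7120 for Cy5, with 2688, 3668 and 3911 for Cy3, 0 spots were saturated, and the number of arrays limits the precision.

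The 14977 probes with values on at least 2 arrays were tested against 0 with lmFit and eBayes and Benjamini-Hochberg adjustment (threshold 0.05). The 2-fold rule is that of the authors' methods. The methods describe random groups and no paired test. Elsewhere the paper states that each goat was compared with a fellow of the same parent, and each array holds such a pair, so the ratios are paired. Ratios were simulated with 200 changed probes, split evenly between log2 changes of 2 and 4. Limma recovered 96% of those changed by 2 and 100% of those changed by 4, with 11 false calls. Both changes are far larger than the loess mean of any member, so recovery at the members' size was not tested. The arrays were on 1 slide and in 1 scan, so no block could be fitted.

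Members and lists were chosen with earlier results of these data known. Members described singly were, per group, the 4 highest and 4 lowest means of the same sign on every array, the 2 brightest probes, the pairs of a record that differed most and least, and the whole elongation group. Others were added, after their values were seen, to describe the groups. Of the 34 records 0 matched the accessions of the goat annotation table, and 6 symbols did, so positions in the goat genome are not given. Alternatives were other background corrections, median centring, the authors' ratios, filters, averaged probes, leaving out arrays and unpaired channels. Figures were drawn with matplotlib 3.10.9.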

Additional observations from a re-analysis of the deposited data

How the results depend on the processing

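With median centring in place of loess, the group medians became 0.319 for splicing, 0.540 for initiation, 0.416 for elongation and 0.132 for tRNA synthetases. Members with an unadjusted p under 0.05 became 20 higher and 0 lower, 9 were called, 1 was at least 2-fold higher, 25 were higher and 1 was lower on every array. Of all 14977 tested probes, 2569 were then higher and 2554 lower at that p, and 1880 were called. On every array 4198 of them were higher and 4224 lower. In that setting the mean of hnRNP C was 0.391, of the first eIF4A probe 0.408, of SARS 0.343, of the glutamyl-prolyl enzyme 0.377, of the first EEF1E1 probe 0.389 and of the asparaginyl probes 0.0952 and 0.0176, all above 0 in place of below. The first eIF4A probe was also above 0 with Feature Extraction's ratio (0.0406), in the authors' value table (0.0406) and averaged with its pair (0.0964), and the second EEF1E1 probe was at -0.0343 averaged with its pair. With 1 array left out, the first eIF4A probe ranged from -0.114 to 0.105 (above 0 without replicate 3), SARS from -0.178 to 0.118 (above 0 without replicates 1 or 2), the first SRSF3 probe from -0.0748 (without replicate 3) to 0.144, and the second EEF1E1 probe from -0.0712 (without replicate 3) to 0.0924.

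With each array left out in turn, members with an unadjusted p under 0.05 numbered 1 to 5 higher and 0 to 1 lower. Without replicate 1 they were 5 and 0, without replicate 2 the lower count was 0, and without replicate 3 the higher count was 1. Members on 1 side of 0 on all remaining arrays were 12 to 17 higher, the most without replicate 2, and 5 to 11 lower, the most without replicate 3. Shares over all probes with an array left out are not given, so these counts have no background beside them. The mean of EF-1 alpha 2 ranged from -0.141 (without replicate 1) to -0.675 (without replicate 3), and that of eIF3 subunit C from 0.143 (without replicate 3) to 0.474 (without replicate 1). The group medians were then 0.005 to 0.090 for splicing, 0.176 to 0.320 for initiation, -0.112 to 0.066 for elongation and -0.186 to -0.019 for tRNA synthetases. With the channels as unpaired samples and no replicate block, in place of the pairing, 1 member was higher and 0 were lower at that p. The pairing changed no call, since 0 members were called either way. An alternative chosen after the data were seen added the elongation factor-1 alpha records to the elongation group, whose median became 0.284, above that of initiation, and another added eIF4A-II and eIF4A-III to the initiation group, whose median became 0.152. With both added, initiation minus elongation was -0.132 ± 0.134. Of 231 recomputed means of singly described probes, 209 kept their direction and side of the threshold. Under median centring only 8 of the 21 such probes did, while 7 changed sign and 6 passed the threshold. The count of 209 includes settings that could add little. The filter for probes well above background removed no member and so left every mean as it was. The authors' ratios were nearly those of Feature Extraction, so these settings are not separate checks. The cause of the changes was not tested.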

Other observations

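Other records of EF-1 alpha, the factor that delivers charged tRNAs to the ribosome, are described on the array as elongation factor-1 alpha, with a hyphen. This wording is outside the rule by which the members were chosen. The descriptions name no form of the factor, and EEF1A1 is the only record whose symbol does. These 4 probes of 3 records were taken up after their values had been seen. LOC100125610 had 0.75, 0.65 and 0.55 with 1 probe and 0.65, 0.73 and 1.00 with the other, with means of 0.65 and 0.79. LOC100101228 had 0.58, 0.61 and 0.90, with a mean of 0.70. EEF1A1 had 0.24, 0.30 and 0.43, with a mean of 0.32. All 4 were higher in the short photoperiod skin on every array, beside 21.6% of all probes. EF-1 alpha 2 was not. The adjusted p-values of the 4 from limma were 0.155, 0.155, 0.155 and 0.220, so 0 were called. All 4 had an unadjusted p under 0.05, beside 9.1% of all tested probes higher at that p. Under median centring their means lay between 1.10 and 1.63 and all 4 were called, beside 1880 of all 14977 tested probes. The 4 were bright, with a median log2 intensity of 15.8 against 12.2 over all probes. Median centring leaves in the rise of the ratio with intensity. Records of 1 gene family can share labelled RNA, so these are not separate measurements, and dye bias and a change with photoperiod cannot be told apart.

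The related helicases eIF4A-II and eIF4A-III, whose descriptions leave out the word translation, were also outside the rule. eIF4A-II (TC70243) had -0.29, -0.08 and -0.55, with a mean of -0.30 and an adjusted p of 0.297, but a mean of 0.33 under median centring. eIF4A-III (TC54053), a part of the exon junction complex, had a mean of -0.01.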
